A study of Mus musculus with 6 samples.

Results

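The mu class glutathione transferases are a family of 7 paralogous mouse genes, Gstm1 to Gstm7, and all 7 were found among the 38561 genes of each deposited table by their gene symbols. Transcripts were counted in mucosa scraped from the small intestine, in 6 libraries that were each prepared from the pooled RNA of 3 mice of both sexes, aged 8 to 12 weeks. Of these, 3 pools were labelled with the genotype Rbm47-IKO, in which Cre recombinase driven by the Villin promoter deletes floxed Rbm47 in the intestinal epithelium, and 3 pools were controls, labelled wt and described in the study's methods as floxed (Rbm47 fl/fl) mice. Both groups were on the C57BL/6J background, and the labels name no treatment. The mice per pool and the ages are those of the labels, and the study's text gives wider ranges for both. Rbm47 encodes an RNA-binding protein that serves as a cofactor of C-to-U editing of RNA. The comparison asks whether the mu class transcripts differ between the 2 genotypes.

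Glutathione transferases join the tripeptide glutathione to electrophilic compounds, such as food toxicants, drug metabolites and products of lipid peroxidation, which can then be pumped out of the cell and broken down to mercapturic acids. The cytosolic enzymes are grouped into classes, among them alpha, mu, pi, theta and omega, and work as dimers of subunits from the same class. Intestinal epithelium and liver are rich in them, and several alpha and mu class genes are known targets of the transcription factor NRF2, which binds antioxidant response elements. All 7 mu class genes lie side by side on mouse chromosome 3.

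The targeted gene went against the label. Rbm47 (ENSMUSG00000070780, chr5:66016549-66173117, GRCm38) was at 603, 625 and 620 CPM (read counts relative to the library total, scaled for library composition) in the labelled Rbm47-IKO pools and at 460, 450 and 472 CPM in the control pools. Every labelled Rbm47-IKO pool was thus above every control pool, and the difference was 0.42 ± 0.10 on the log2 scale (standard error, SE; n = 3; edgeR quasi-likelihood test, adjusted p = 0.0751). The counts cover the whole gene and do not show which exons were deleted, so the genotype could not be read from them, and each direction below is between the libraries as labelled.

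Total counts ran from 31560320 to 38951830 per library, and no 2 libraries were identical. The 10 enterocyte markers summed to 57800, 63000 and 59000 CPM in the labelled Rbm47-IKO pools and to 68000, 65400 and 72300 CPM in the control pools, so that every labelled Rbm47-IKO pool was below every control pool. None of the 10 passed the test, and 5 had a positive and 5 a negative log2 difference. Apob was at 10800, 10400 and 9860 CPM against 19700, 14900 and 22100 CPM (log2 difference -0.87; edgeR, adjusted p = 0.0583). Levels were separate and lower for 3 markers, among them Apob and Apoa4 (-1.01), and separate and higher for 2, Fabp2 (0.51) and Anpep (0.52). The sum gives most weight to highly expressed genes such as Apob, and the 10 markers did not move as a set. The part of the difference in the enterocyte sum in the results was not tested. Xist, which is transcribed in female cells, was at 1.09 and 0.686 CPM in control pools 1 and 3 and at 150 CPM in control pool 2, although the labels give both sexes for each pool. In the labelled Rbm47-IKO pools Xist was at 75.6, 258 and 40.3 CPM. The 6 smooth muscle markers summed to 3300 CPM in labelled Rbm47-IKO pool 3 and 2800 CPM in control pool 2, against 90.7 to 586 CPM in the other pools. Results are therefore also given without control pools 1 and 3 and without the pools rich in muscle transcripts. The labels give 3 pools per group, so that p-values measure the spread between pools, not between single mice.

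The mu class cluster spanned 149 kb of the deposited annotation (chr3:107895821-108044894, GRCm38). Gstm5 stood first, on the plus strand, and was followed on the minus strand by Gstm7, Gstm6, Gstm3, Gstm2, Gstm1 and Gstm4. The coding sequences were 68.0% to 89.4% identical over the 21 pairs of genes, with a median of 82.3%, when the principal transcripts of GENCODE M21 were aligned. The most similar pair was Gstm1 and Gstm3, and the least similar pair was Gstm3 and Gstm5. Since short reads from paralogs can match more than 1 gene, the share of 50-base windows that occurred in no other annotated gene was computed. This share was 100% for Gstm4, Gstm5 and Gstm7, 90.6% for Gstm2 and 88.2% for Gstm6. It was lower for Gstm1 (76.9%) and Gstm3 (71.2%), which shared windows with each other and with pseudogenes such as Gm8834 and Gstm2-ps1. How reads with several matches and read strand were handled is not given in the sources used here, so the split of counts between Gstm1 and Gstm3 is uncertain. In the deposited gene models, 82 exonic bases were shared by Gstm3 and Gstm6 on the same strand, or 5.9% of Gstm3. Gstm5 shared 178 of its 1278 exonic bases with 4933431E20Rik on the opposite strand. The log2 difference of 4933431E20Rik was -0.14 ± 0.25 (SE, n = 3; edgeR, adjusted p = 0.861).

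The primers that the study designed for quantitative PCR show where the paralogs can be told apart. They are printed for the 5 genes they target, 5′ to 3′, and each lies in coding exons of GRCm38. Gstm1 forward lies at chr3:108016554-108016574 in exon 4, and Gstm1 reverse spans exons 4 and 5 between chr3:108016426-108016534. Gstm3 forward spans exons 5 and 6 between chr3:107966374-107967592, and Gstm3 reverse lies at chr3:107966334-107966353 in exon 6. Gstm4 forward and reverse lie in exon 5, at chr3:108043382-108043399 and chr3:108043342-108043361. Gstm5 forward and reverse lie in exon 4, at chr3:107897297-107897317 and chr3:107897336-107897356. Gstm7 forward and reverse lie in exon 5, at chr3:107930351-107930371 and chr3:107930310-107930331. The forward primers of Gstm1, Gstm3, Gstm4 and Gstm7 have the sequence of the minus strand, and that of Gstm5 has the sequence of the plus strand.
Gstm1 forward: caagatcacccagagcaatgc
Gstm1 reverse: catccaggtggtgctttcg
Gstm3 forward: tgctgcagtcccgattttg
Gstm3 reverse: ttctcagggatggccttcaa
Gstm4 forward: tcgcgtggacattttgga
Gstm4 reverse: gactcgagccagctgattgg
Gstm5 forward: ctcatggacgggaagaacaag
Gstm5 reverse: gcgtgcgatgtatctcaggat
Gstm7 forward: gggagacagaggaggaaagga
Gstm7 reverse: gcggttgtccataagctgattc
The Gstm1 forward primer matched Gstm2 and the pseudogenes Gm6665 and Gstm2-ps1 without a mismatch, while its reverse primer matched Gstm1 only and had 3 mismatches to Gstm2, the nearest member. Both Gstm3 primers also matched the pseudogene Gm8834, and the reverse one matched Gstm2-ps1 as well and had 1 mismatch to Gstm1. The Gstm4, Gstm5 and Gstm7 primers each matched their own gene only, although the Gstm4 forward primer had 1 mismatch to Gstm2.

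None of the 7 genes passed the test over all genes, although all 7 had higher mean levels in the labelled Rbm47-IKO pools. Of the 16425 genes tested over the whole table, 443 passed at an adjusted p of 0.05 or less (2.70%), 238 of them higher (1.45%) and 205 lower (1.25%). A positive log2 difference, which all 7 members had, was seen in 49.3% of the genes tested. The median log2 difference was 1.02 over the members and -0.006 over all genes tested. At an unadjusted p under 0.05, 6 of the 7 members were higher, as were 8.57% of all genes tested. DESeq2 called 2 members (Gstm3 and Gstm7), against 7.57% of all genes.

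Gstm3 and Gstm1 had the highest levels, and Gstm1 encodes the main mu class subunit of mouse liver. Gstm3 (ENSMUSG00000004038, chr3:107942333-107969283) was at 63.5, 135 and 94.1 CPM in the labelled Rbm47-IKO pools and at 25.8, 64.6 and 34.7 CPM in the control pools. Control pool 2 was slightly above labelled Rbm47-IKO pool 1, so that the groups overlapped. The group means were 97.6 ± 36.0 and 41.7 ± 20.4 CPM (SD, n = 3), and the log2 difference was 1.23 ± 0.38 (SE; edgeR, adjusted p = 0.15). Gstm1 (ENSMUSG00000058135, chr3:108012255-108017973) was at 38.4, 69.0 and 75.3 CPM in the labelled Rbm47-IKO pools and at 10.7, 36.2 and 19.4 CPM in the control pools. Its groups did not overlap, but its highest control pool and its lowest labelled Rbm47-IKO pool were close. Gstm1 had the largest log2 difference of the family, 1.46 ± 0.44 (SE, n = 3; edgeR, adjusted p = 0.135).

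Gstm7 (ENSMUSG00000004035, chr3:107926334-107931817), whose transcript shared no window with another gene, was at 10.5, 16.4 and 16.5 CPM against 3.71, 10.3 and 6.28 CPM. The 2 groups came near to each other at control pool 2 but did not overlap on this scale, while on library totals they did (10.4 against 10.5 CPM). The log2 difference was 1.10 ± 0.36 (SE, n = 3; edgeR, adjusted p = 0.176). Gstm2 (ENSMUSG00000040562, chr3:107981702-107986453) was at 7.65, 11.8 and 12.3 CPM against 2.88, 8.96 and 3.79 CPM, and control pool 2 was above labelled Rbm47-IKO pool 1. Its log2 difference was 1.02 ± 0.42 (SE, n = 3; edgeR, adjusted p = 0.28). Gstm4 (ENSMUSG00000027890, chr3:108040408-108044894), which also shared no window, was at 4.16, 6.15 and 6.31 CPM against 1.74, 4.14 and 3.57 CPM. Its groups did not overlap, by a margin of 4.16 against 4.14 CPM that was turned on library totals (4.09 against 4.22 CPM), and its log2 difference was 0.81 ± 0.35 (SE, n = 3; edgeR, adjusted p = 0.295). Thus in 3 of the 7 genes, Gstm1, Gstm4 and Gstm7, every labelled Rbm47-IKO pool was above every control pool, as in 11.7% of all genes tested. This count depended on the scaling of the libraries. It was 4 with RLE scaling, which added Gstm5, and 1, Gstm1, with upper quartile scaling or with counts divided by library totals, where 10.4% to 11.8% of all genes were separate in this direction. These scalings were compared after seeing the data.

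Gstm5 and Gstm6 differed least. Gstm5 (ENSMUSG00000004032, chr3:107895821-107898686), the most divergent member in sequence and known for its expression in brain and testis, was at 8.35, 9.48 and 10.9 CPM in the labelled Rbm47-IKO pools and at 6.03, 8.41 and 5.90 CPM in the control pools. Only labelled Rbm47-IKO pool 1 lay below the highest control pool, and the log2 difference was 0.50 ± 0.20 (SE, n = 3; edgeR, adjusted p = 0.269). Gstm6 (ENSMUSG00000068762, chr3:107938847-107943749) was at 16.3, 23.6 and 23.2 CPM against 7.41, 24.3 and 16.9 CPM. Its highest value was that of control pool 2, and the log2 difference was 0.37 ± 0.38 (SE, n = 3; edgeR, adjusted p = 0.721).

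**Figure D1:**
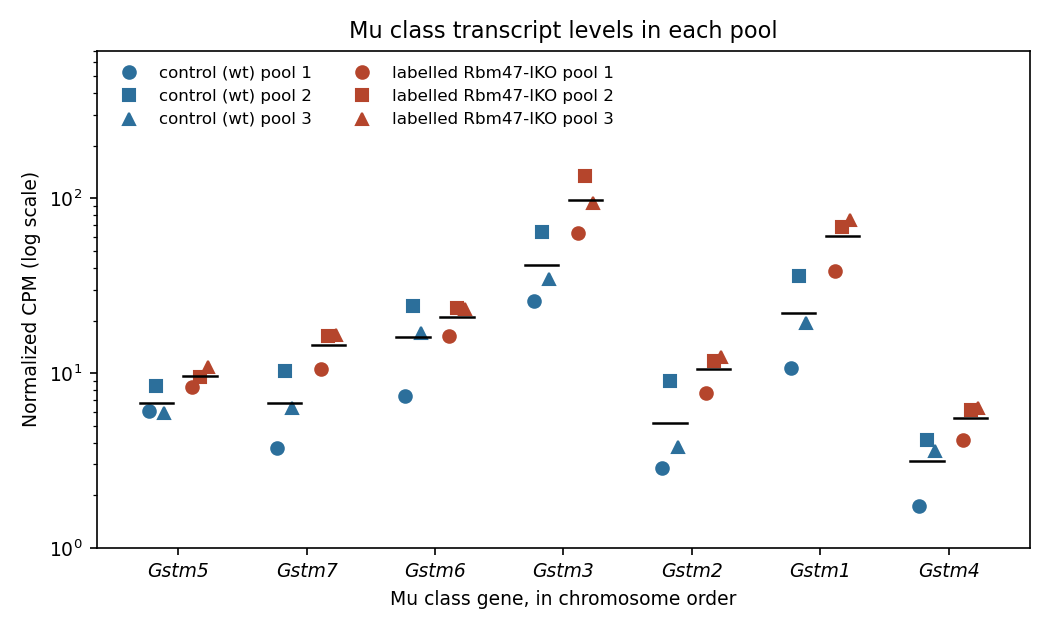
Normalized CPM of the 7 mu class genes on a log scale, in chromosome order, with 1 point per pool and a bar at each group mean (n = 3). Control pool 2 was the highest control pool for every gene, between 4.14 CPM for Gstm4 and 64.6 CPM for Gstm3, and labelled Rbm47-IKO pool 1 was the lowest of its group for every gene.

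The spread within the control group was wide and ran the same way for most genes. Control pool 2 was the highest control pool for all 7 members, and control pool 1 was the lowest for all but Gstm5, for which control pool 3 was lowest. The highest control pool exceeded the lowest 3.39-fold for Gstm1, 3.28-fold for Gstm6, 3.11-fold for Gstm2, 2.78-fold for Gstm7, 2.51-fold for Gstm3, 2.38-fold for Gstm4 and 1.42-fold for Gstm5. Among the labelled Rbm47-IKO pools, this ratio ran from 1.31 (Gstm5) to 2.13 (Gstm3), and pool 1 was the lowest for all 7. The ratio of the group means ran from 1.30 (Gstm6) to 2.76 (Gstm1). For all 7 genes it was smaller than the ratio of the highest to the lowest control pool, by least for Gstm5 (1.41 against 1.42).

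The members summed to 149, 272 and 239 CPM in the labelled Rbm47-IKO pools and to 58.2, 157 and 90.6 CPM in the control pools. The means of these sums were 220 ± 63.5 and 102 ± 50.4 CPM (SD, n = 3), a 2.16-fold difference. The lowest labelled Rbm47-IKO pool was at 0.948 times the highest control pool, so that the groups overlapped in the sum. The sum does not depend on how reads were divided among the 7 members if each read was counted once, which is not given. It does depend on whether reads shared between members were dropped or counted repeatedly, and on how reads shared with pseudogenes were counted. In bulk tissue, fewer cells of a type and less RNA per cell cannot be told apart.

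The order of the genes was compared per kilobase of gene length, as RPKM on the same scaling. In the labelled Rbm47-IKO pools the mean levels were 70.1 RPKM for Gstm3, 43.7 for Gstm1, 10.6 for Gstm6, 9.06 for Gstm7, 7.5 for Gstm5, 6.30 for Gstm2 and 3.25 for Gstm4. Each gene was above the next in all 3 pools, but the ranges of neighbours were separate only between Gstm1 and Gstm6 and between Gstm2 and Gstm4. In the control pools the mean levels were 29.9 RPKM for Gstm3, 15.8 for Gstm1, 8.16 for Gstm6, 5.30 for Gstm5, 4.22 for Gstm7, 3.10 for Gstm2 and 1.84 for Gstm4. The ranges of all neighbours overlapped there, and Gstm6 was above Gstm5 in 2 of the 3 pools. Gstm5 and Gstm7 were the only genes to change places between the groups.

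The share of each member in the family counts was compared as a range over the pools. Gstm1 held 25.4% to 31.5% of the mu class counts in the labelled Rbm47-IKO pools and 18.3% to 23.1% in the control pools. Gstm6 held 8.68% to 11% and 12.7% to 18.7%. Neither pair of ranges overlapped, per count or per kilobase. Such separation is common in these libraries, since the levels of 11.7% of all genes tested were separate and higher and those of 11.6% separate and lower, and with 3 pools against 3 a two-sided exact permutation test cannot give a p under 0.1. The Gstm1 share also carries the uncertain split of its reads. Gstm3 held the largest share in every pool, 39.4% to 49.8% and 38.4% to 44.3%. The shares of Gstm2, Gstm3, Gstm4, Gstm5 and Gstm7 overlapped between the groups, with those of Gstm7 within 6.05% to 7.08% in all 6 pools.

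**Figure D2:**
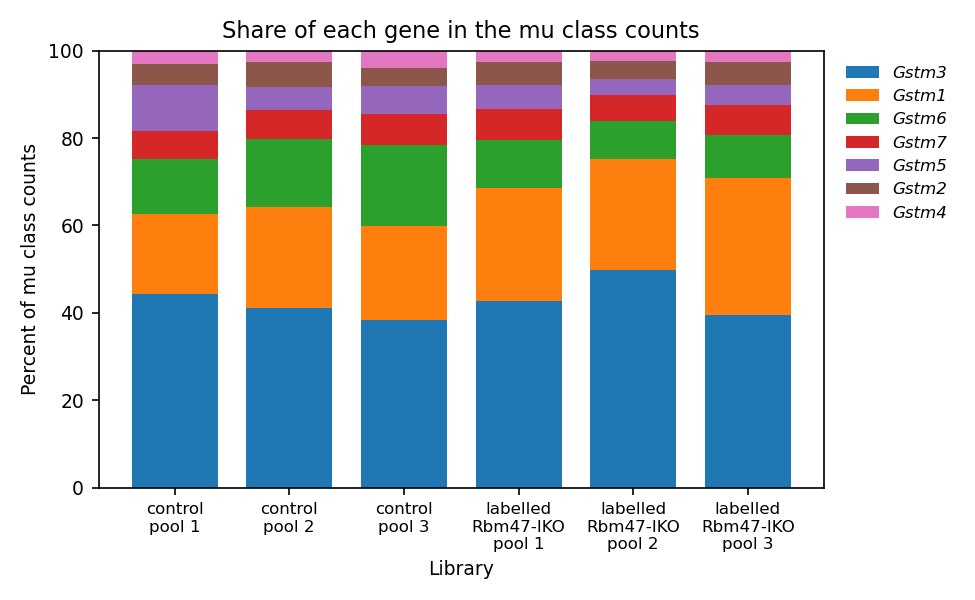
Share of each mu class gene in the summed mu class counts, in percent, as 1 stacked bar per pool that adds up to 100%. The Gstm1 segment takes 25.4% to 31.5% in the labelled Rbm47-IKO pools and 18.3% to 23.1% in the control pools, while the Gstm6 segment takes 8.68% to 11% and 12.7% to 18.7%.

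The levels of the members varied together across the 6 libraries. The mean of their centred log2 CPM was 0.09, 0.72 and 0.71 in the labelled Rbm47-IKO pools and -1.18, 0.19 and -0.52 in the control pools. Pearson correlations between pairs of members ran from 0.73 (Gstm5 and Gstm6) to 0.998 (Gstm1 and Gstm7), over 6 libraries that include the 2 groups. Among 13482 other genes of at least 1 CPM on average, 285 had a correlation of 0.9 or more with this mean pattern. The 5 closest were March2 (0.997), a ubiquitin ligase, Selenow (0.993), a selenoprotein, Grn (0.993), which encodes progranulin, Arl6ip5 (0.988), an endoplasmic reticulum protein, and Nit2 (0.988), an omega-amidase. None of these 5 passed the test, and their log2 differences ran from 0.23 (Grn) to 0.65 (Selenow).

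The same rank of the pools was partly seen in transcripts of other cell types and of the sex chromosomes. Smooth muscle markers summed to 361, 586 and 3300 CPM in the labelled Rbm47-IKO pools and to 90.7, 2800 and 313 CPM in the control pools. Fibroblast markers summed to 137, 222 and 333 CPM and to 81.7, 394 and 134 CPM. Control pool 2 was therefore the highest control pool, and control pool 1 the lowest, for both marker lists and for the mu class sum. All 6 genes of each list were detected, and none of them passed the test. The 4 Y-linked genes summed to 139, 53.0 and 144 CPM and to 215, 87.9 and 220 CPM, lowest in pool 2 of each group. Goblet cell markers summed to 20100, 22700 and 19900 CPM and to 17400, 15700 and 15000 CPM, higher in every labelled Rbm47-IKO pool than in any control pool, as was Gstm1 under each scaling. All 6 goblet markers had a positive log2 difference and none passed the test, and their part in the result was not tested. Paneth cell markers, at 867, 981 and 535 CPM against 1930, 1370 and 537 CPM, and B and plasma cell markers, at 59.0, 119 and 107 CPM against 162, 101 and 144 CPM, did not rank the pools as the mu class did. All 6 Paneth markers (median log2 difference -0.66) and all 7 B and plasma cell markers (median -0.81) had negative differences, and none passed the test. Hepatocyte markers stayed at or under 6.62 CPM. The 6 proximal small intestine markers summed to 5000, 6190 and 6200 CPM and to 4260, 5270 and 5720 CPM, with labelled Rbm47-IKO pool 1 below control pools 2 and 3, and none passed the test. Of the 3 ileal markers, which had a median log2 difference of 1.18, none passed the test. Fabp6, the ileal bile acid binding protein, was at 31.7, 39.8 and 18.6 CPM and at 17.2, 3.98 and 2.55 CPM, higher in every labelled Rbm47-IKO pool (log2 difference 1.93; edgeR, adjusted p = 0.201). Fgf15, a hormone of the ileum, differed by 1.18, and Slc10a2, the ileal bile acid transporter, by -0.47, with its highest level, 44.3 CPM, in control pool 1. Markers of the large intestine summed to at most 5.21 CPM, with Car1 and Hoxd13 at 0 in all pools. The only one tested, Hoxb13, a homeobox gene of the posterior gut, was at 2.6, 3.54 and 5.18 CPM in the labelled Rbm47-IKO pools and at 0, 0.553 and 0.302 CPM in the control pools (log2 difference 3.69; edgeR, adjusted p = 0.0708). The part of gut region in the mu class levels was not tested.

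**Figure D3:**
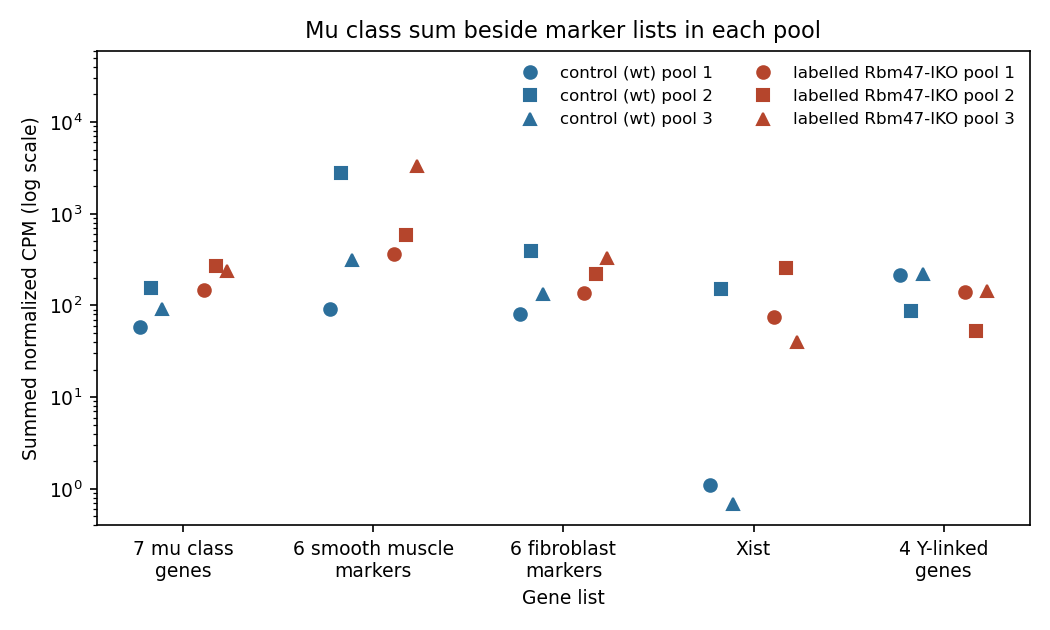
Summed normalized CPM on a log scale of the mu class genes, smooth muscle markers, fibroblast markers, Xist and Y-linked genes, with 1 point per pool. Control pool 2 is the highest control pool for the mu class sum (157 CPM), for muscle (2800 CPM), for fibroblasts (394 CPM) and for Xist (150 CPM), and control pools 1 and 3 are near 1 CPM for Xist.

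With the smooth muscle sum as a covariate in the edgeR fit, 3 members passed, namely Gstm1 (log2 difference 1.28, adjusted p = 0.00827), Gstm7 (0.95, adjusted p = 0.0308) and Gstm3 (1.12, adjusted p = 0.0448), against 4.33% of all genes tested. With the summed Y-linked level as a covariate, the log2 differences ran from 0.15 (Gstm6) to 1.22 (Gstm1), and no member passed, as against 0.359% of all genes tested. Without control pool 2, Gstm2 (1.67, edgeR adjusted p = 0.0331), Gstm1 (2.02, adjusted p = 0.041) and Gstm3 (1.69, adjusted p = 0.0456) passed, against 2.58% of all genes. Without both pools rich in muscle transcripts, a choice made after seeing the data that leaves 2 pools per group, Gstm2 (1.53, edgeR adjusted p = 0.0444) and Gstm1 (1.83, adjusted p = 0.0477) passed, as did 327 of all 16335 genes tested. With control pool 2 as the only control, the control pool with Xist, the log2 differences of the other 6 genes were between 0.20 (Gstm5) and 0.76 (Gstm1), and that of Gstm6 turned to -0.20. No member passed in that fit, also added after seeing the data, in which the single control was assumed to vary like the other group and 0.00570% of all genes passed. No member passed when any single pool other than control pool 2 was left out. Few genes of the whole table passed in these fits, except in that without control pool 1, in which 335 passed. The share was 0.187%, 0% and 0.710% without labelled Rbm47-IKO pools 1, 2 and 3 (edgeR; 1729 genes at an unadjusted p under 0.05 without pool 2), and 1.98% and 0.0649% without control pools 1 and 3. What part sex and muscle RNA had in the levels was not tested beyond these fits.

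**Figure D4:**
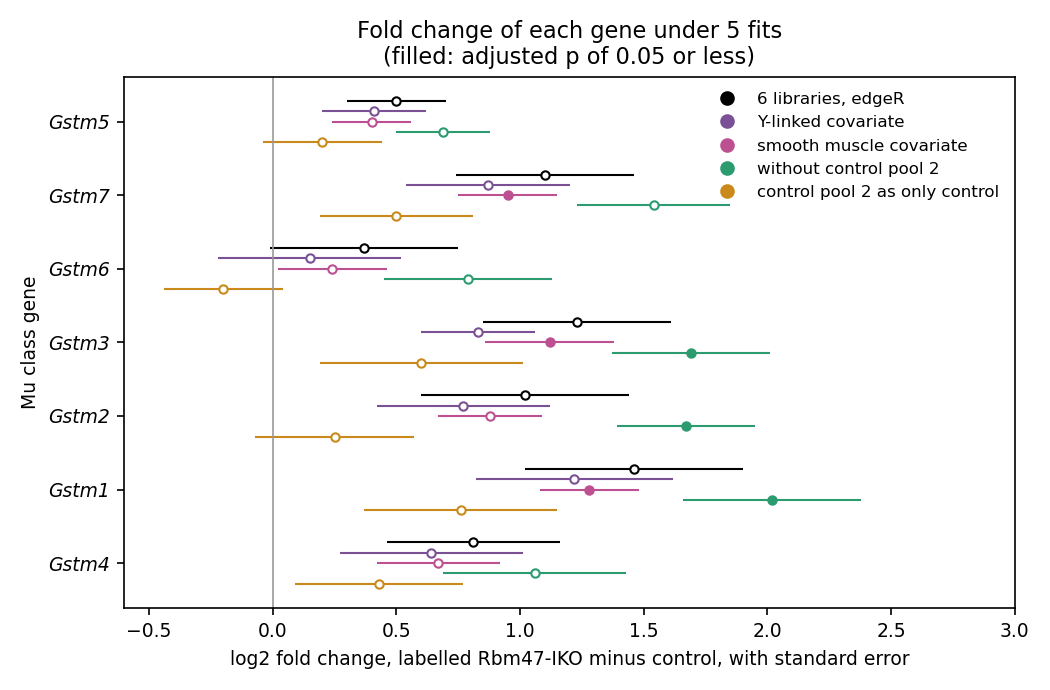
Log2 difference of each mu class gene, labelled Rbm47-IKO minus control, with its standard error, under 5 fits with edgeR, where filled points have an adjusted p of 0.05 or less. Leaving out control pool 2 moves each gene to the right (Gstm1 to 2.02), and using it as the only control moves each to the left (Gstm1 to 0.76, Gstm6 to -0.20).

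Genes that flank the cluster were read from the same fit. Within 500 kb of the outermost members lay 43 other genes, of which 22 were tested, 16 with a positive and 6 with a negative log2 difference and with a median of 0.16. Only Ampd2 (chr3:108074062-108086651), which encodes an AMP deaminase and lies just beyond Gstm4, passed. It was higher in the labelled Rbm47-IKO pools by 0.62 ± 0.12 on the log2 scale (SE, n = 3; edgeR, adjusted p = 0.045), a call that was lost when any 1 of the 6 pools was left out, with log2 differences of 0.51 to 0.71.

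**Figure D5:**
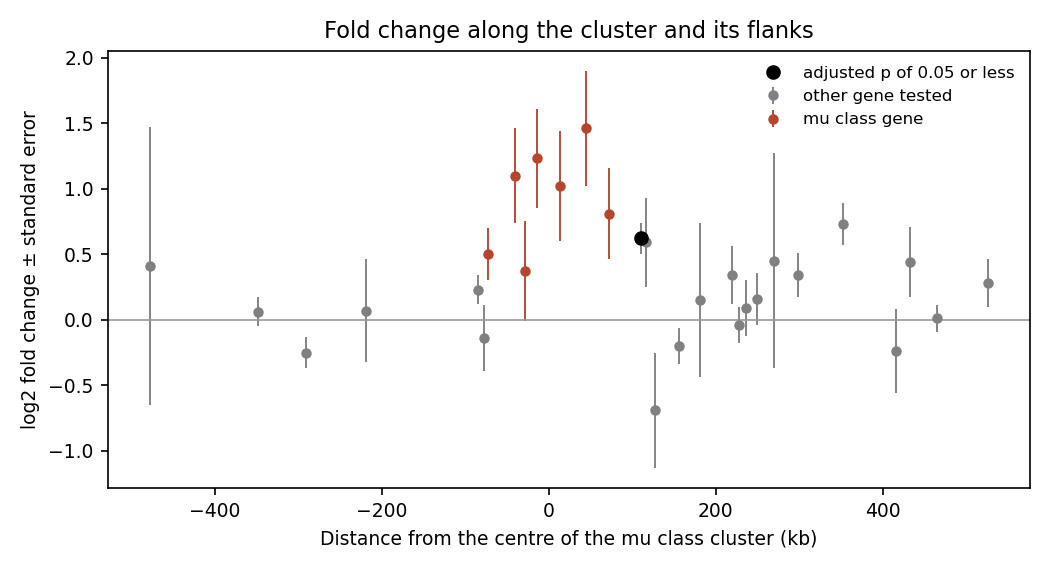
Log2 difference with its standard error (n = 3 pools per group) of the 7 mu class genes and the 22 other genes tested within 500 kb, against the distance of each gene from the centre of the cluster in kb. The mu class genes lie between 0.37 and 1.46, and among the flanking genes only Ampd2, at 0.62, has an adjusted p of 0.05 or less.

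The other glutathione transferases were read as a list of 20 genes. Of the 19 found in the tables, 13 were tested, with 7 positive and 6 negative log2 differences and a median of 0.23. The alpha class genes Gsta1, Gsta3 and Gsta4 passed, all higher in the labelled Rbm47-IKO pools, and no gene of the list was called lower. Over all genes tested, 1.45% were called higher and 1.25% lower. Gsta3 was at 10.1, 18.7 and 20.2 CPM against 3.32, 4.93 and 2.63 CPM, a log2 difference of 2.17 ± 0.33 (SE, n = 3; edgeR, adjusted p = 0.0214). Gsta4, which conjugates 4-hydroxynonenal, was at 39.3, 61.8 and 65.7 CPM against 11.8, 21.9 and 11.1 CPM, a log2 difference of 1.90 ± 0.31 (adjusted p = 0.0258). Gsta1 was at 12.3, 18.8 and 17.2 CPM against 2.85, 6.64 and 4.23 CPM, a log2 difference of 1.81 ± 0.32 (adjusted p = 0.034). As for the mu class, labelled Rbm47-IKO pool 1 was the lowest of its group for these 3 genes, but their groups did not overlap. Gsto1, of the omega class, was at 198, 221 and 152 CPM against 251, 370 and 374 CPM, with a log2 difference of -0.80 that did not pass (edgeR, adjusted p = 0.0889). The pi class genes Gstp1, Gstp2 and Gstp3, and Gstt4, were listed at 0 counts in all 6 tables. Whether these zeros stand for absent transcripts or for the way reads were counted was not tested.

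Genes that make, reduce or break down glutathione did not pass. Of 16 genes for its synthesis, reduction and breakdown, all tested, 11 had a positive and 5 a negative log2 difference, with a median of 0.19. Gclc, the catalytic subunit of the enzyme that limits glutathione synthesis, was at 202, 208 and 156 CPM against 133, 80.6 and 63.9 CPM, with a log2 difference of 1.03 (edgeR, adjusted p = 0.0956). Its modifier subunit Gclm differed by -0.49 (adjusted p = 0.0896). Chac1, which cleaves glutathione, differed by 1.37 (adjusted p = 0.237), and Anpep, an aminopeptidase of the brush border, by 0.52.

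Of 10 genes for the export and processing of glutathione conjugates, all tested, 9 had a positive log2 difference and 2 passed, both higher. Over all genes tested, these shares were 49.3% positive and 1.45% called higher. Kyat1, a cysteine conjugate beta-lyase, was at 252, 257 and 265 CPM in the labelled Rbm47-IKO pools and at 39.9, 91.0 and 60.3 CPM in the control pools, a log2 difference of 2.02 ± 0.27 (SE, n = 3; edgeR, adjusted p = 0.0145). Abcc3, a basolateral conjugate pump, was at 128, 164 and 133 CPM against 85.9, 70.3 and 77.0 CPM, a log2 difference of 0.87 ± 0.13 (adjusted p = 0.0221). Abcc2, its apical counterpart, differed by 0.57 (adjusted p = 0.12), and Acy3, an aminoacylase that deacetylates mercapturic acids, by 0.64 (adjusted p = 0.232).

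Of 16 regulators and reference targets of NRF2, all tested, 14 had a positive log2 difference, with a median of 0.30, and 2 passed, both higher. Over all genes tested, 49.3% had a positive difference and 1.45% were called higher. The 14 include regulators such as Keap1 (0.22) and Bach1 (0.15), so that they are not a count of targets alone. Nqo1, a quinone reductase, was at 50, 58.1 and 40.6 CPM against 15.1, 21.1 and 14.6 CPM, a log2 difference of 1.55 ± 0.19 (SE, n = 3; edgeR, adjusted p = 0.0119). Cbr3, a carbonyl reductase, was at 1.59, 2.96 and 1.53 CPM against 0.353, 0.632 and 0.412 CPM, a log2 difference of 2.11 ± 0.41 (adjusted p = 0.043). Ephx1, the microsomal epoxide hydrolase, differed by 1.37 (adjusted p = 0.152) and Gpx2, a glutathione peroxidase of the gut epithelium, by 0.93 (adjusted p = 0.246). Other targets of the list differed less, among them Hmox1 (0.65, groups overlapping), Srxn1 (0.10) and Txnrd1 (-0.10). Txnrd1 and the regulator Cul3 (-0.31) were the 2 genes with a negative difference. The transcript of NRF2 itself, Nfe2l2, differed by 0.22 (adjusted p = 0.485). With the summed Y-linked level as a covariate, a fit in which 59 genes of the whole table passed, Gsta1, Gsta3, Gsta4, Kyat1, Abcc3 and Cbr3 lost their calls and Nqo1 kept its call. The log2 differences in that fit were 1.57, 1.96, 1.69, 1.87, 0.82 and 1.69 for these 6 genes and 1.35 for Nqo1. The calls of all 7 genes were lost without labelled Rbm47-IKO pool 2, without control pool 3 and with control pool 2 as the only control, fits in which 0, 11 and 1 genes of the whole table passed. Those of all but Nqo1 were lost without labelled Rbm47-IKO pool 3, those of all but Gsta3 without labelled Rbm47-IKO pool 1, and those of Gsta3, Gsta4 and Cbr3 without control pool 1. Cbr3 also lost its call with limma-voom (log2 difference 2.07, adjusted p = 0.0506). Abcc3 lost its call without both pools rich in muscle transcripts (log2 difference 0.84, edgeR adjusted p = 0.0526). Over all 19 alternatives the lowest log2 difference was 1.28 for Gsta1, 1.73 for Gsta3, 1.35 for Gsta4, 1.51 for Kyat1, 0.75 for Abcc3, 1.24 for Nqo1 and 1.68 for Cbr3.

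Because NRF2 binds antioxidant response elements, the letters of their core, TGACNNNGC, were searched on both strands of the promoters of the 7 genes, from 250 bases before to 50 bases after each start site in RefSeq (GRCm38.p6). Of 12 promoters, 2 held a match, and 4071 of all 32851 promoters of that length did (12.4%). The matches are shown with their flanks, with the motif in capitals, on the strand of the gene. They lie at chr3:107895802-107895830 (plus strand, Gstm5) and at chr3:107931725-107931753 (minus strand, the second start site of Gstm7), and begin at -42 and -129 bases from the start site. The Gstm7 match is upstream of the second start site only. It lies within the deposited gene (chr3:107926334-107931817), downstream of the window searched around the first start site (chr3:107931768-107932067).
Gstm5: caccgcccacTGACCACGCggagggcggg
Gstm7: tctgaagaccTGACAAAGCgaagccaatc
Gstm5 had a log2 difference of 0.50, smaller than all but that of Gstm6, and Gstm7 had the third largest (1.10). The promoters of Gstm1, Gstm2, Gstm3, Gstm4 and Gstm6 held no match in this window.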

How the data were processed

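RNA from the pools was selected with oligo(dT) and sequenced by the study. Per the labels, the authors used STAR 2.5.1a, Subread and featureCounts 1.4.6-p5 on GRCm38. The authors deposited, per library, the read count of each gene, a CPM column (deposited, counts relative to the library total) and an RPKM column (deposited, that CPM divided by gene length in kilobases). The script's own CPM and RPKM equalled these 2 columns within rounding, and the columns were then set aside. Symbols came from GENCODE M21, which matched 36639 of 38561 genes. The unmatched genes held 0.369% of the counts.

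Counts were tested with edgeR 4.0.16 (quasi-likelihood, TMM scaling, filterByExpr) in R 4.3.3, with Benjamini-Hochberg adjustment over the 16425 genes tested and a threshold of 0.05. CPM in the text are on TMM library sizes. Log2 CPM used a prior count of 2. SE was derived from the test's F value. The fit was tested on simulated data. Alternatives were DESeq2 1.42.0, limma-voom 3.58.1, other scalings and filters, covariates, the replicate block and leaving out each pool. Coding sequences were aligned with Biopython 1.88.

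The members and gene lists were chosen with earlier results of these data known. Named are the 7 members, Rbm47, in each list the genes that passed and up to 4 with the largest absolute log2 difference, flanking genes that passed, and the 5 genes most like the members. Nfe2l2, the gene of NRF2, Keap1, Bach1, Cul3, Hmox1, Srxn1, Txnrd1, 4933431E20Rik and the genes listed at 0 were named after their values were seen.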

Additional observations from a re-analysis of the deposited data

How the results depend on the processing

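The log2 difference of Gstm1, Gstm2, Gstm3, Gstm4, Gstm5 and Gstm7 was positive under each of 19 alternatives, and that of Gstm6 under 18, the exception being control pool 2 as the only control (-0.20). The range was 0.76 to 2.02 for Gstm1, 0.25 to 1.67 for Gstm2, 0.60 to 1.71 for Gstm3, 0.43 to 1.06 for Gstm4, 0.20 to 0.69 for Gstm5, -0.20 to 0.79 for Gstm6 and 0.50 to 1.54 for Gstm7. The number of members past the threshold, 0 of 7 in edgeR with 6 at an unadjusted p under 0.05, was 2 with DESeq2 (Gstm3, adjusted p = 0.00559, and Gstm7, adjusted p = 0.0266), 3 with the smooth muscle covariate, 2 without both pools rich in muscle transcripts, and 0 to 3 when 1 pool was left out, the 3 being without control pool 2. Scaling, low-count filters, limma-voom and robust edgeR called no member. The cause of these changes was not tested. Over the whole table the 443 genes became 1243 with DESeq2, 711 with the smooth muscle covariate, 59 with the Y-linked covariate and 1 with control pool 2 as the only control. Leaving out 1 pool gave 0 to 431 genes, with 0 without labelled Rbm47-IKO pool 2 (edgeR; 1729 at an unadjusted p under 0.05), 11 without control pool 3, 32 and 119 without labelled Rbm47-IKO pools 1 and 3, 335 without control pool 1 and 431 without control pool 2. The log2 differences of Gsta1, Gsta3, Gsta4, Kyat1, Abcc3, Nqo1, Cbr3 and Ampd2 were positive under all 19 alternatives, and their calls held under 13, 12, 12, 13, 11, 15, 10 and 8 of them. Per kilobase, the mean shares of Gstm2, Gstm4, Gstm6 and Gstm7 in the labelled Rbm47-IKO pools moved to 4.25%, 2.20%, 7.20% and 6.11%.

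The pools share only a number, and deviations of pools with the same number correlated at 0.41, 0.00 and -0.28, so that the numbers do not pair the pools, and not every pool correlated best with its own number. With the number as a replicate block, 100 genes and 1 member (Gstm3, log2 difference 1.27, edgeR adjusted p = 0.0347) passed. In that fit Gsta3, Abcc3, Cbr3 and Ampd2 lost their calls (edgeR, adjusted p = 0.053, 0.0808, 0.0612 and 0.0813). Their log2 differences there were 2.15, 0.86, 2.09 and 0.62. The smallest count behind a value of a member was 59 (Gstm4, control pool 1), and precision was set by the spread between 3 pools per group.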
